A study of Saccharomyces cerevisiae with 3 samples.

Results

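Aminoacyl-tRNA synthetases are the enzymes that load each tRNA with its amino acid. The genes described here are 22 yeast genes whose products charge tRNAs in the cytosol or are a second copy or subunit of such an enzyme, the accessory factor gene ARC1, and 14 genes whose products charge tRNAs inside mitochondria. They were taken by gene name and locus tag, in a list drawn up with earlier results of these data known, and make 37 of the 6172 genes in the table. Below, ARC1 is counted with the cytosolic genes, which gives 23 cytosolic and 14 mitochondrial members. All 37 were found by locus tag and had 1 row each.

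The study exposed budding yeast, Saccharomyces cerevisiae, to caspofungin, an echinocandin drug that blocks the yeast cell wall's beta-1,3-glucan synthase. The strain was labelled WSC1extMID2cyt in the BY4741 background, and both RNAs on every array came from it, so no comparison with the parent strain is possible. The label names WSC1 and MID2, which encode membrane sensors of cell wall stress, and does not spell out the construct. Cultures in the rich medium YEPD at 24 °C were split into an untreated part and a part given 15 ng/ml caspofungin for 2 hours, and both RNAs were hybridised together on 2-colour arrays. The 3 arrays are numbered 1, 2 and 4 in the labels, and the treated RNA carried Cy5 on arrays 2 and 4 but Cy3 on array 1, a dye swap. The series text describes 2 cultures, each hybridised in both dye orientations. Array 1 therefore shares a culture with array 2 or with array 4, and which of them is not stated.

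Each value is a log ratio between treated and untreated RNA, with base 2 assumed. Whether a positive value means more or less RNA with the drug is not stated in the sources used here, so values are given as positive or negative, as deposited. All sides named below would be exchanged if the sign ran the other way. Of a list of 14 genes of the cell wall integrity response, which is known to be switched on by wall damage, 13 had values on at least 2 arrays. This list was drawn up with earlier results of these data known. Among the 13, 11 were positive and 0 negative on every array with a value, and the median of the 13 gene means was 1.09. The highest means belonged to 4 genes encoding proteins of the cell surface. NCW2 averaged 1.88 ± 0.09, CWP1 1.67 ± 0.89, PUN1 1.52 ± 0.31 and SED1 1.17 ± 0.10 (SD, n = 3 arrays each). PIR1 and CHS3 changed side between arrays. PIR1 had 0.0027, -0.054 and 1.21 on arrays 1, 2 and 4, and CHS3 had -0.46 and 0.066 on arrays 1 and 2. For comparison, 1899 genes of the whole table were measured on 2 or 3 arrays. Of them, 351 stayed on the positive side throughout and 872 on the negative side, and the median of their means was -0.19. The cells were measured in bulk, so a shift in every cell and a larger shift in some cells cannot be told apart.

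A value was present for 2520 genes on array 1, 1924 on array 2 and 741 on array 4. Across genes, which are no independent replicates, array 2 correlated with array 1 (Pearson's r = 0.58, 1863 genes) and with array 4 (r = 0.53, 590 genes), and arrays 1 and 4 hardly did (r = 0.075, 616 genes). Arrays 1 and 2 had all-gene medians of -0.20 and -0.22, and array 4 had 0.09. Of the 4 markers of the a mating type, which BY4741 cells have, STE2, BAR1 and MFA2 had values and MFA1 had none. STE2 and BAR1 averaged -0.79 and -1.23 over their arrays, and MFA2 had -1.23 on array 2. Of the 4 alpha markers none had a value. A ratio carries no level, and 3471 of the 6172 genes had no value.

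Charging is done by a separate enzyme for almost every amino acid. These enzymes fall into 2 unrelated structural classes, I and II. Yeast uses separate nuclear genes for most mitochondrial enzymes, while a few genes (ALA1, GRS1, HTS1, VAS1 and YNL247W) supply both compartments. In yeast an excess of uncharged tRNA activates the kinase Gcn2, which raises translation of the transcription factor Gcn4, an activator of amino acid synthesis genes.

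The cytosolic genes were measured far more completely than the mitochondrial ones. A value on at least 2 arrays was present for 20 of 23 cytosolic members (87.0%), 2 of 14 mitochondrial members (14.3%) and 30.8% of all genes. Of the cytosolic members, 6 had values on 3 arrays, 14 on 2 arrays and 1, the tyrosine enzyme gene TYS1, on array 1 alone. CDC60 (leucine) and ILS1 (isoleucine) had none. Among the mitochondrial members, MSE1 and AIM10 had values on all arrays, 4 had a value on array 1 alone, and MSD1, MSK1, MSM1, MSR1, MST1, MSY1, ISM1 and DIA4 had none. The filter that removed values is not given in the sources used here, and its part in this difference was not tested.

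Most cytosolic synthetase genes lay on the negative side, the side opposite to most of the cell wall integrity genes. Over the 20 genes with at least 2 values the median of the gene means was -0.43, against -0.19 over all 1899 such genes. Of these 20 genes, 15 were negative on every array with a value (45.9% of all genes with at least 2 values were), and VAS1 alone was positive on every one. With each value set against its array's median, 10 of the 20 lay below it throughout, where 28.6% of all genes did. On array 1 the cytosolic median was -0.27 over 21 genes, a difference of -0.067 from the median of all genes there. On array 2 the cytosolic median was -0.78 over 20 genes, a difference of -0.56. On array 4 it was 0.010 over 6 genes, a difference of -0.082. Negative values were found for 19 of 21 cytosolic genes on array 1, 18 of 20 on array 2 and 3 of 6 on array 4, against 67.5%, 67.5% and 43.3% of all genes.

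**Figure D1:**
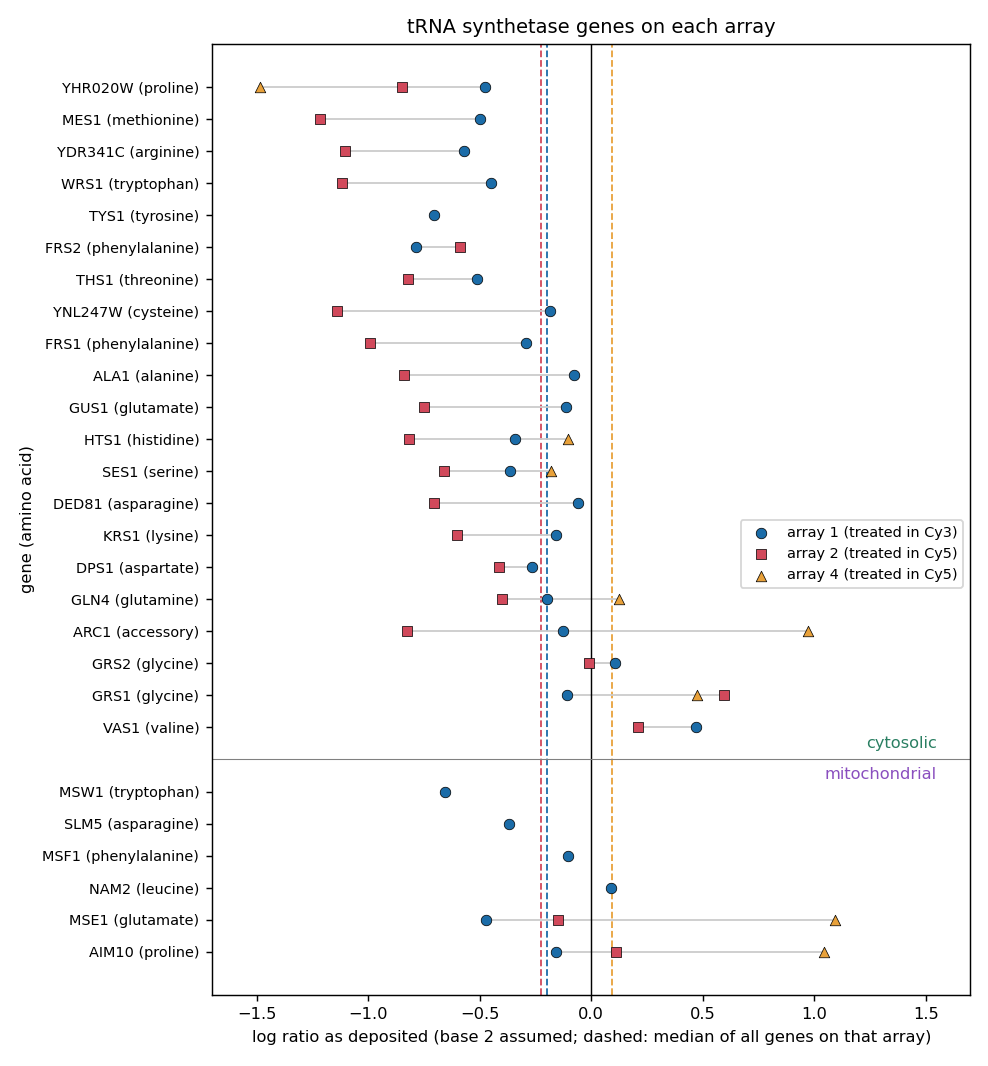
Log ratio as deposited (x axis, base 2 assumed) of each of the 27 synthetase genes with a value (y axis), by array; dashed lines mark the median of all genes on each array and grey bars join the values of a gene. Most cytosolic genes sit left of 0, with array 2 farthest left, while MSE1, AIM10 and ARC1 sit near 1 on array 4.

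On the arrays that measured most members, 17 of 20 cytosolic genes were negative on both array 1 and array 2, where 52.6% of all 1863 genes with both values were. The exceptions were GRS1, GRS2 and VAS1. Below the array's median on both arrays were 11 of 20, against 30.1% of all genes. The value on array 2 was the lower of the pair for 18 of the 20, against 57.1% of all genes, and only GRS1 and FRS2 were lower on array 1. The median difference, array 2 minus array 1, was -0.46 for the cytosolic genes and -0.09 for all genes. Arrays 1 and 2 differ in dye orientation and possibly in culture, and these cannot be told apart for this difference. Across the 20 genes Pearson's r between arrays 1 and 2 was 0.58, as a description of values that share both arrays. The SD between these arrays had a median of 0.36 per gene, against an SD of 0.33 among the 20 gene means. The per-gene SD includes the shift shared by most of these genes, which does not change their order. The differences, array 2 minus array 1, had an SD of 0.38 among the 20 genes. Whether the order of single genes is resolved was not tested.

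**Figure D2:**
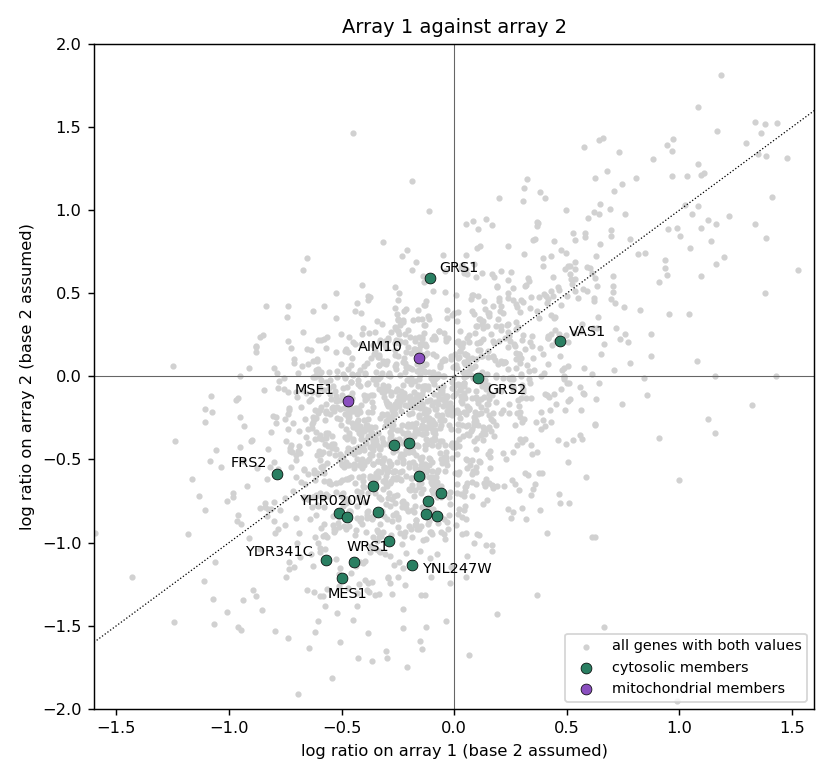
Log ratio on array 2 (y axis) against array 1 (x axis), base 2 assumed, for genes with both values (grey), cytosolic members (green) and mitochondrial members (purple); the dotted line marks equal values, and 51 of 1863 genes lie outside the axes. All but 2 of the 20 cytosolic genes lie below the dotted line, and GRS1 and FRS2 lie above it.

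No member passed the test for a difference from 0. The limma test over both possible pairings of the arrays, with Benjamini-Hochberg adjustment over the 585 genes with all 3 values, called 0 of 8 members, and it called 0.0% of all genes. At an unadjusted p under 0.05 there was 1 member, YHR020W, among 67 genes, and an unmoderated test also called 0 members. With genes on at least 2 arrays, every array counted as a replicate, limma called 0 of 22 members and 2.53% of all genes, and an unadjusted p under 0.05 was found for 7 of the 22 members and 23.9% of all genes. With arrays 1 and 2 alone it called 3 of 22 members, all negative, where 11.2% of all genes were called and 6.44% on the negative side. They were YDR341C, MES1 and WRS1 (adjusted p = 0.033, 0.033 and 0.047). These p-values would be too small if both arrays came from the same culture. The 3 calls were not made once array 4, which has no value for these genes, was let into the fit: their adjusted p was then 0.13, 0.15 and 0.16.

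Low values on every array measured were found for several genes, among them those for proline, methionine, arginine and tryptophan. These genes do not share the same arrays. YHR020W, the cytosolic prolyl-tRNA synthetase gene, had -0.48 on array 1, -0.85 on array 2 and -1.48 on array 4, a mean of -0.94 ± 0.51 (SD, n = 3 arrays; limma adjusted p = 0.41). It was negative on every array and had the lowest value of any member on array 4, without which its mean was -0.66. FRS2 and THS1, described below, had means of -0.69 and -0.67 on arrays 1 and 2. YHR020W was thus set apart from them by array 4 alone, where they had no value. MES1, the methionyl enzyme gene, had -0.50 on array 1 and -1.21 on array 2, and 5.09% of all genes on array 2 were lower. YDR341C, the arginyl enzyme gene, had -0.57 and -1.10 on these arrays. WRS1, the tryptophanyl enzyme gene, had -0.45 and -1.12. The cysteinyl enzyme gene YNL247W was as low on array 2, at -1.14, but had -0.19 on array 1, close to the median of all genes there. These last 4 genes were the only cytosolic members at least 2-fold on the negative side of array 2, 4 of 20 against 8.0% of all genes, and each encodes a class I enzyme. FRS1, a class II gene, came next at -0.99.

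The structural classes overlapped. On array 2 the 7 class I genes had a median of -1.10 and ranged from -1.21 to 0.21, and the 12 class II genes had a median of -0.68 and ranged from -0.99 to 0.59. On array 1 the medians were -0.32 over 8 class I genes and -0.28 over 12 class II genes. The difference between classes was not tested. Class I genes were lower on array 2 than on array 1 in 7 of 7 cases and class II genes in 10 of 12.

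Genes whose products work in one complex can be compared within an array. Arc1 is a tRNA-binding factor that in yeast holds the methionyl and glutamyl enzymes, products of MES1 and GUS1, in one assembly. On array 1 ARC1 had -0.13 and GUS1 -0.11, with MES1 lower at -0.50. On array 2 ARC1 had -0.83 and GUS1 -0.75, with MES1 again lower at -1.21. ARC1 was the only one of the 3 with a value on array 4, and that value was 0.97, above 89.7% of all genes there. Its mean over 3 arrays was 0.0069 ± 0.91 (SD), and the side of this mean rests on array 4: without it the mean was -0.48.

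The phenylalanyl enzyme is built from an alpha subunit, encoded by FRS2, and a beta subunit, encoded by FRS1. FRS2 had -0.79 on array 1 and -0.59 on array 2. FRS1 had -0.29 on array 1 and -0.99 on array 2. Both genes were negative on both arrays, and their order was exchanged between the arrays, so no difference between the subunits was resolved.

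Apart from the glycine and valine genes, the remaining genes of cytosolic enzymes had negative means. THS1 (threonine) averaged -0.67 ± 0.22, ALA1 (alanine) -0.46 ± 0.54, DED81 (asparagine) -0.38 ± 0.46, KRS1 (lysine) -0.38 ± 0.31 and DPS1 (aspartate) -0.34 ± 0.11 (SD, n = 2 arrays each). ALA1 and DED81 had -0.08 and -0.06 on array 1, above the median of all genes, and -0.84 and -0.70 on array 2, below it. HTS1, the histidyl enzyme gene, had -0.34 on array 1, -0.82 on array 2 and -0.10 on array 4. SES1, for serine, had -0.36, -0.66 and -0.18 on arrays 1, 2 and 4. Both were negative on all arrays, as was YHR020W, which makes 3 of 6 cytosolic genes with all values, against 29.1% of all genes. GLN4, for glutamine, had -0.20, -0.40 and 0.12 on arrays 1, 2 and 4. TYS1 had -0.71 on array 1, the second lowest member there after FRS2.

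DED81 and YHR020W are the only neighbouring members in the reference gene order, and the strand letters of their locus tags (YHR019C and YHR020W) point away from each other. On array 1 they differed, at -0.06 for DED81 and -0.48 for YHR020W. On array 2 they were close, at -0.70 and -0.85. DED81 had no value on array 4, where YHR020W was lowest.

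The glycine and valine genes had means above 0, though only VAS1 was positive on every array with a value. GRS1, the main glycyl enzyme gene, had -0.11 on array 1, 0.59 on array 2 and 0.47 on array 4, a mean of 0.32 ± 0.37 (SD, n = 3 arrays; limma adjusted p = 0.64). It was higher than 91.2% of all genes on array 2, the array on which most other cytosolic members were lowest. GRS2, a second glycyl gene that yeast does not need in ordinary growth, had 0.11 on array 1 and -0.011 on array 2. Cross-hybridisation between these related genes was not tested. VAS1, for valine, had 0.47 on array 1 and 0.21 on array 2, the highest value of any member on array 1.

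GRS1 and VAS1 belong to the 5 genes counted here as serving both cytosol and mitochondria. The other members of that group, ALA1, HTS1 and YNL247W, were negative on both array 1 and array 2, so the group of 5 was split. Of the 15 cytosolic members outside it with a value on array 2, all 15 were negative there, from -1.21 to -0.011, against 67.5% of all genes on that array. Their median was -0.75, and that of the 5 shared genes was -0.82. The difference between these groups was not tested.

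The mitochondrial genes were compared with the cytosolic ones on each array. On array 1 the groups did not separate: the medians were -0.26 over 6 mitochondrial and -0.27 over 21 cytosolic genes, and the range of the former, -0.66 to 0.09, lay inside that of the latter, -0.79 to 0.47. The single-array values were -0.66 for MSW1 (tryptophan), -0.37 for SLM5 (asparagine), -0.11 for MSF1 (phenylalanine) and 0.09 for NAM2, whose product charges leucine and also takes part in splicing mitochondrial introns. On arrays 2 and 4 only MSE1 and AIM10 remained, and the cytosolic median minus theirs was -0.76 on array 2 and -1.06 on array 4. Both genes lay within the cytosolic range on array 2 and above all 6 cytosolic genes on array 4.

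**Figure D3:**
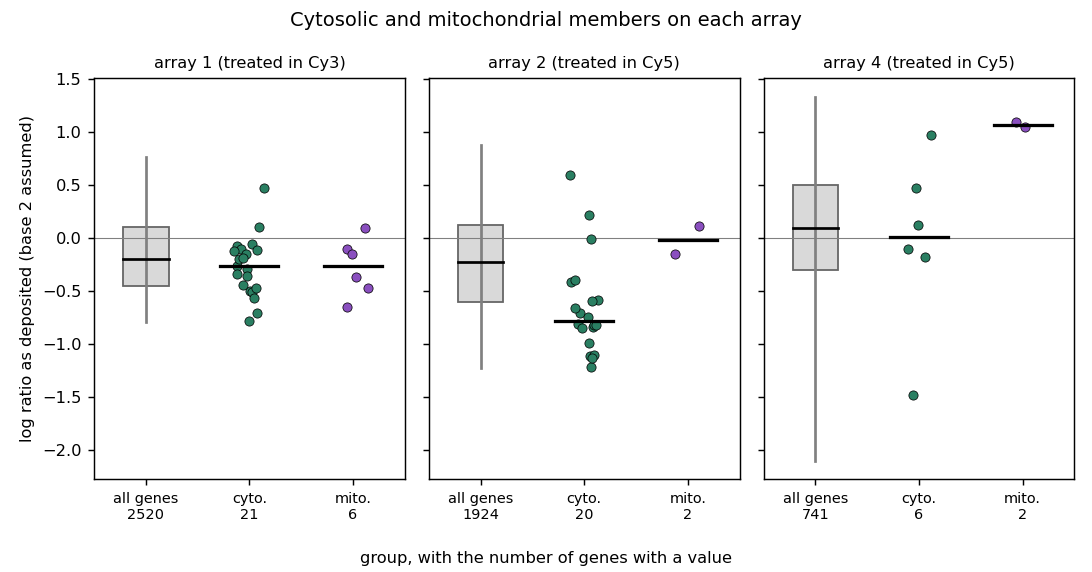
Log ratio as deposited (y axis, base 2 assumed) of all genes (box from the 25 to the 75 percentile, line from 5 to 95), cytosolic and mitochondrial members (points) on each array (panels); black bars are medians and the numbers count genes with a value. The groups overlap on array 1, the cytosolic genes lie low on array 2, and the 2 mitochondrial genes lie highest among members on array 4.

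MSE1, the mitochondrial glutamyl enzyme gene, had -0.47 on array 1, -0.15 on array 2 and 1.09 on array 4. AIM10, which encodes the mitochondrial prolyl enzyme, had -0.16, 0.11 and 1.04 on arrays 1, 2 and 4. Both were lowest on array 1 and highest on array 4, and 91.5% and 91.0% of all genes on array 4 were lower. Their means were 0.16 ± 0.82 and 0.33 ± 0.63 (SD, n = 3 arrays; limma adjusted p = 0.95 and 0.61), and both means changed side without array 4, at -0.31 and -0.023. The difference between the medians of both compartments over genes with at least 2 values was -0.67, with 20 cytosolic and 2 mitochondrial genes. It was -0.33 without array 4. As 1 array decides its size, and 2 genes stand for 14, it describes MSE1 and AIM10 and not the mitochondrial group.

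Enzymes for one amino acid could be set side by side in 6 pairs for 5 amino acids, as both phenylalanyl subunit genes were paired with the one value of MSF1. On array 1 the cytosolic gene was the lower in 3 of 6 pairs, with differences from -0.68 to 0.36. The 3 were FRS1 and FRS2 against MSF1, at -0.19 and -0.68, and the proline pair. Both pairs with a value on array 2 had the lower value in the cytosolic gene. The proline pair had values on all arrays: YHR020W minus AIM10 gave -0.32, -0.96 and -2.52 on arrays 1, 2 and 4, a mean of -1.27 ± 1.14 (SD, n = 3 arrays). The cytosolic gene was lower on each array. As the arrays come from 2 cultures, sign flips over cultures cannot give a two-sided p below 0.5. For glutamate, GUS1 minus MSE1 was 0.36 on array 1 and -0.60 on array 2, so the order turned. For tryptophan and asparagine, on array 1 alone, the cytosolic genes WRS1 and DED81 were higher by 0.21 and 0.31.

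Genes around tRNA charging were described from lists chosen with earlier results of these data known. Of 45 genes of tRNA maturation and modification, 8 had at least 2 values, with a median of -0.53, 6 negative and 1 positive on every array with a value (45.9% of all genes were negative in this way). NCL1, a tRNA cytosine methyltransferase gene, had -0.83 on array 1 and -0.84 on array 2. TRM82, a subunit of a guanosine methyltransferase, averaged -0.70 ± 0.46 and GCD10, a subunit of an adenosine methyltransferase, -0.68 ± 0.24 (SD, n = 2 arrays each). LOS1, the gene of a tRNA export receptor, had -0.14, 0.34 and 1.16 on arrays 1, 2 and 4, lowest on array 1 and highest on array 4 as AIM10 was. The 4 mitochondrial charging partners (HER2, PET112, GTF1 and FMT1), which make or use mitochondrial aminoacyl-tRNAs, had no value.

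**Figure D4:**
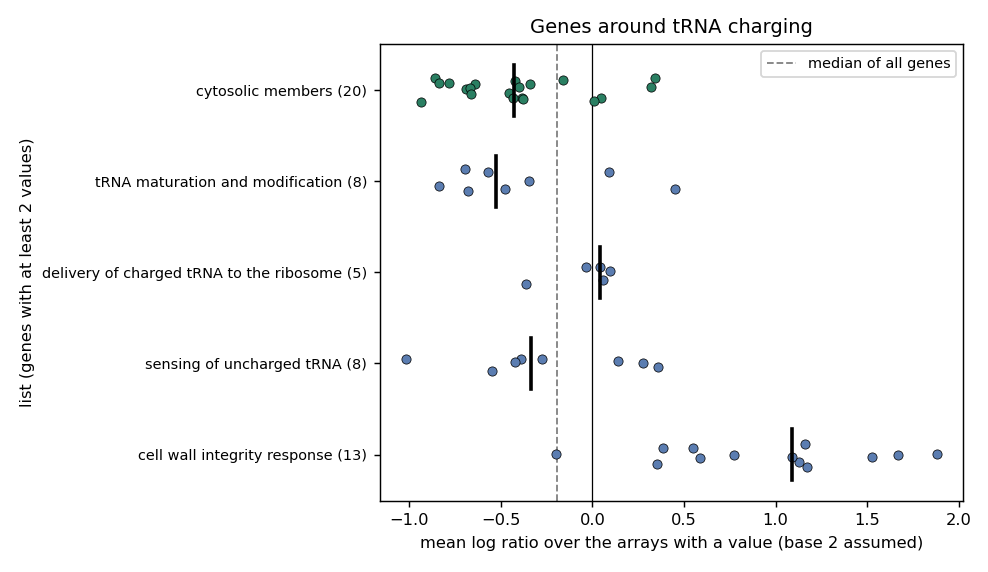
Mean log ratio over the arrays with a value (x axis, base 2 assumed) for genes with at least 2 values, by list (y axis, with the number of genes); black bars are medians and the dashed line is the median of all genes. The synthetase and tRNA maturation genes lie mostly left of 0, those delivering charged tRNA have a median near 0, and most cell wall integrity genes lie to the right. The means cover unlike sets of arrays.

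Elongation factors carry charged tRNA to the ribosome, and the median of their gene means lay near 0. The list's 5 measured genes had a median of 0.04, with a median of -0.25 on array 2 and of 0.28 on array 4. Array 4 had values for 3 of these 5 genes and for 6 of the 20 cytosolic members with at least 2 values. The means of these groups thus cover unlike sets of arrays. TEF1 and TEF2, which encode the same protein, eEF1A, and may share signal on an array, averaged -0.03 ± 0.19 and 0.06 ± 0.26 (SD, n = 3 arrays each). TEF4, a subunit of its exchange factor, had -0.14, -0.78 and 1.22 on arrays 1, 2 and 4, lowest on array 2 and highest on array 4 as ARC1 was. TUF1, the mitochondrial counterpart, averaged -0.36 ± 0.17 (SD, n = 2 arrays).

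Genes that sense uncharged tRNA and carry that signal were mixed. Of 8 with at least 2 values, 5 were negative and 3 positive on every array with a value, and their median was -0.33. GCN4 had 0.44, 0.35 and 0.28 on arrays 1, 2 and 4, a mean of 0.36 ± 0.08 (SD, n = 3 arrays), so it lay on the positive side throughout. GCN2 had no value, and GCN1 had -0.45 on array 1 alone. GCD7, a subunit of the initiation factor eIF2B, had -0.10, -0.93 and -2.01, SUI3, a subunit of eIF2, averaged 0.14 ± 0.21 (SD, n = 3 arrays) and SUI2, another eIF2 subunit, -0.55 ± 0.49 (SD, n = 2 arrays). In the 3-array fit limma called 0 genes of these lists and 0.0% of all genes, and with arrays 1 and 2 alone it called 1 of 8 genes of tRNA maturation, NCL1, on the negative side (limma adjusted p = 0.028), where 6.44% of all genes were called on that side. With genes on at least 2 arrays, every array counted as a replicate, it called 0 of these 8 and 2.53% of all genes. An unadjusted limma p under 0.05 was found there for 4 of the 8 and 23.9% of all genes.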

How the data were processed

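RNA of treated and untreated parts of one culture was compared on each of 3 two-colour arrays, which form 1 group. The deposited values are log2 ratios prepared by the authors; base 2 is assumed, and the scanner, normalization, filter, centring and direction were not given in any source used here. The small number of arrays limits the precision. Of 6209 rows, 5654 matched a locus tag and 57 a synonym in the RefSeq gene table of the S288C reference assembly, 498 kept their name, and 2 control rows without values were left out. Rows of one gene were averaged. Array 1 did not correlate below 0 with the others, so no sign was turned.

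Each gene with 3 values was tested against 0 with limma 3.58.1 under R 4.3.3 (lmFit, then eBayes), fitted in 2 ways: array 1 averaged with array 2 or with array 4, because arrays of one culture are technical replicates. The larger p was kept and adjusted by Benjamini-Hochberg over 585 genes, with a threshold of 0.05. A mean printed with such a p is the plain mean over 3 arrays, while the fits tested means that weigh the arrays unequally. Where arrays count as separate replicates, p-values may measure technical spread only. The script was tested on simulated data.

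Groups of members were described by counts and medians beside those of all genes, with no test. Every member was to be named, by its values or as having none, and up to 4 genes of each other list, those with most values and then the largest absolute mean; GCN1, GCN2 and the markers were named after their values were seen. Members and lists were chosen with earlier results of these data known. Alternatives covered the pairing, centring, scaling, moderation, the genes used, group membership, the sign of array 1 and leaving out each array. A planned search of promoter and protein sequences was not run.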

Additional observations from a re-analysis of the deposited data

How the results depend on the processing

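The number of members past the limma threshold was 0 in every fit but the one without array 4, where it was 3 (range 0 to 3 over the fits that drop an array). The fit without array 4 tested 1863 genes in place of 585 and called 209 of all genes. The cytosolic median, -0.43, stayed negative under all alternatives run (from -0.44 to -0.21, and -0.49 to -0.13 with 1 array left out). The median over all genes was negative too, at -0.19, and with each array centred the cytosolic median was -0.27. The cytosolic median differed from that of all genes by -0.067, -0.56 and -0.082 on arrays 1, 2 and 4. Most of the shift thus lay on array 2. The mitochondrial median, 0.24 over 2 genes, was -0.0084 over the 6 genes with a value on any array, and lay between -0.17 and 0.52 in fits on 2 arrays, changing side without array 4. The cytosolic minus mitochondrial difference ranged from -0.69 to -0.42, and from -0.80 to -0.33 with 1 array left out. The -0.42 came from the 6 mitochondrial genes with a value on any array. Every other value rests on the same 2 mitochondrial genes, so it says little that the sign of the difference did not turn. The count of cytosolic genes negative on every array with a value, 15 of 20, was 10 after centring and 12 of 15 without genes serving both compartments. Dropping array 1 gave 3 of 6, dropping array 2 also 3 of 6, and dropping array 4 gave 17 of 20, where the number of genes with values sets the lower counts. These counts were chosen after seeing the data. The 8 genes with all values kept their sign in 91 of 96 alternatives, none past the threshold. Some of these alternatives leave a gene's mean as it was, so its sign could not turn in them. They are separate replicates without a dye term, genes on at least 2 arrays, no moderation and the first row of a gene. With an array dropped, AIM10 lay between -0.023 and 0.58, MSE1 between -0.31 and 0.47 and ARC1 between -0.48 and 0.42, each negative without array 4. ARC1 also turned to -0.20 with arrays 1 and 4 averaged and to -0.027 with a dye term; its one positive value is that of array 4. No paired analysis was possible because all arrays form 1 group and each already sets treated against untreated RNA.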
